A study of Caenorhabditis elegans with 4 samples.

Results

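The 5 genes that encode WNT ligands in *Caenorhabditis elegans*, *lin-44*, *egl-20*, *cwn-1*, *cwn-2* and *mom-2*, were taken by name from the 19913 genes of the table, and all 5 were found and passed the filter on low counts. RNA-Seq had been done on whole animals at the first larval stage (L1). The mutant strain, *pry-1(mu38)*, carries a nonsense allele of *pry-1*, which encodes a worm Axin. It was set against N2, the wild-type strain, to find genes that respond to the loss of PRY-1. There were 2 libraries per strain, called biological replicates in the methods, from animals grown on NGM plates at 20 degrees and synchronized by bleaching in 2 rounds. The methods state that strains were outcrossed, and the labels give no further allele in either strain and no date or batch.

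WNT ligands are secreted glycoproteins that carry a lipid group and act on Frizzled and other receptors of nearby or distant cells. In the canonical branch, binding of a ligand stops a destruction complex of Axin, APC, GSK-3 and casein kinase from removing beta-catenin, which then works with a TCF factor on target genes. PRY-1 is part of that complex, so its loss is known to activate the branch downstream of the ligands. In larvae the ligands are made by small groups of cells, mostly in the tail and posterior body, and they guide migrating neuroblasts, orient cell divisions and set the polarity of neurons.

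The libraries held 32310798 and 31418682 counts on genes for *pry-1(mu38)*, against 27741375 and 33230854 for N2. N2 replicate 2 stood apart from the other libraries. The standard deviation of the log2 difference over all tested genes was 0.348 between the *pry-1(mu38)* libraries, against 0.693 between the N2 libraries, while *pry-1(mu38)* replicate 2 and N2 replicate 1 differed by 0.429. Marker genes of muscle, neurons, intestine and pharynx were detected in every library, and the 7 measured markers of embryos before hatching summed to 0.993 and 1.09 CPM (counts per 1000000 counts of the library) in *pry-1(mu38)*, against 1.02 and 2.57 CPM in N2. The *pry-1* transcript was counted in all libraries, with 118.3 and 108.2 CPM in *pry-1(mu38)*, against 70.5 and 61.9 CPM in N2, and gene counts cannot show a nonsense allele.

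Of the 5 ligand genes, *mom-2* differed most between the strains, with about 2.12 times the N2 level in *pry-1(mu38)*, and *egl-20* was also higher in both mutant libraries than in both N2 libraries. The level of *cwn-1* was slightly lower in both mutant libraries. For *lin-44* and *cwn-2* the strains overlapped. None of the 5 passed the test over all genes (adjusted p from 0.337 to 0.733 by the quasi-likelihood test of edgeR, adjusted as Benjamini and Hochberg describe), and 1, *mom-2*, had an unadjusted p under 0.05.

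This was set against the rest of the transcriptome, in which 0.00662% of the 15101 tested genes, that is 1 gene, had an adjusted p under 0.05 and 14.6% an unadjusted p under 0.05. DESeq2 and edgeR's exact test also called 0 of the 5 ligands. For 2 of the 5 ligands both mutant values exceeded both N2 values, as in 29.1% of all tested genes, and for 1 ligand both were below, as in 28.0% of the tested genes. Separation of the strains was that common over all genes, and the count of ligands in which it occurred was not read as a result about them. With 2 libraries per strain an exact permutation test cannot give a p under 0.333, so p-values here depend on the dispersion shared among genes in edgeR. As whole animals were used, a change in the number of expressing cells and a change in RNA per cell cannot be told apart.

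*mom-2* encodes the ligand known from the early embryo, where it comes from a posterior blastomere, polarizes its neighbour and so lets endoderm form. It is also made later, among others in the anchor cell that signals to vulval cells. In *pry-1(mu38)* it had 557 and 520 counts (exact Poisson 95% intervals 511.7 to 605.2 and 476.3 to 566.7), against 262 and 208 in N2 (231.2 to 295.7 and 180.7 to 238.3). Scaled to depth, this was 17.3 and 16.2 CPM in *pry-1(mu38)*, against 9.59 and 6.29 CPM in N2. Both mutant libraries were therefore high and close together, both N2 libraries were low, and the strains did not overlap. The lowest mutant library was 1.69 times the highest N2 library.

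The fitted log2 fold change of *mom-2* was 1.08 (standard error 0.28, 95% interval 0.35 to 1.81), that is 2.12-fold with an interval of 1.27 to 3.51. Its unadjusted p was 0.0128 and its adjusted p 0.337 in edgeR's quasi-likelihood test, which placed it 480th by p among the tested genes. It was the only ligand fitted 2-fold or more higher in *pry-1(mu38)*, as were 3.7% of all tested genes. Leaving out N2 replicate 2 gave a log2 value of 0.80 and leaving out N2 replicate 1 gave 1.45. A fit with a lone N2 library assumes that library to vary as the mutant pair does, so no call was read from such a fit. All 4 fits on 3 libraries gave *mom-2* the higher level in *pry-1(mu38)*, which follows from the lack of overlap between the strains.

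**Figure D1:**
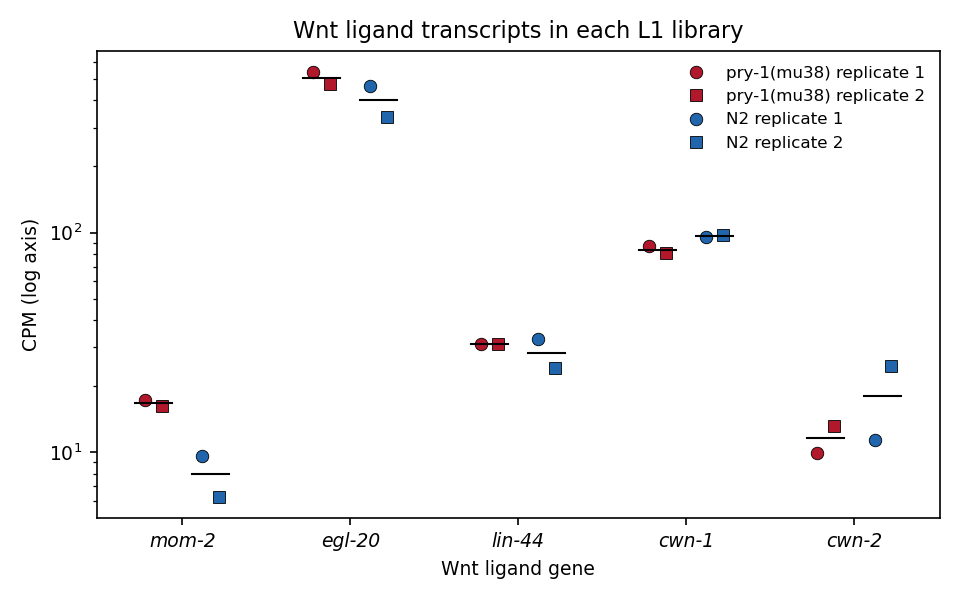
Level of each WNT ligand gene in CPM, on a log axis, in the 2 *pry-1(mu38)* libraries (red, left) and the 2 N2 libraries (blue, right), with circles for replicate 1, squares for replicate 2 and black bars for the strain means. For *mom-2* the mutant points lie at 17.3 and 16.2 CPM, above the N2 points at 9.59 and 6.29 CPM, and for *cwn-2* N2 replicate 2 lies above the 3 other libraries.

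The summed level of the oocyte and adult marker list was, like that of *mom-2*, higher in both *pry-1(mu38)* libraries than in both N2 libraries. So was that of the intestine list, at 6239 and 5635 CPM in *pry-1(mu38)*, against 5015 and 3969 CPM in N2. Most of the intestine sum was 1 gene, *asp-1*, at 4710 and 4159 CPM in *pry-1(mu38)*, against 3407 and 2138 CPM in N2. The next largest, *act-5*, had the opposite order, at 858.8 and 823.1 CPM in *pry-1(mu38)*, against 909.9 and 1110 CPM in N2. Of the 6 intestine genes 3 had a positive and 3 a negative log2 fold change. Of the 8 oocyte and adult markers 6 were tested. All 6 had an unadjusted p under 0.05 with the higher level in *pry-1(mu38)*, as 6.1% of all tested genes did. Their adjusted p was 0.268 to 0.337 in edgeR's quasi-likelihood test, so 0 of them passed the threshold. The oocyte and adult list summed to 191.4 and 197.4 CPM in *pry-1(mu38)*, against 4.72 and 14.4 CPM in N2. In the *pry-1(mu38)* libraries most of that sum came from the yolk protein genes *vit-2* and *vit-5*. In the N2 libraries most did not, with 0.585 and 6.10 CPM for *vit-2* and 0.0732 and 0.453 CPM for *vit-5*. The 4 oocyte genes of the list on their own, *rme-2*, *puf-5*, *cbd-1* and *egg-1*, summed to 12.8 and 14.5 CPM in *pry-1(mu38)*, against 4.03 and 7.65 CPM in N2. Within N2 this sum was larger in replicate 2, in which *mom-2* was smaller. The sperm genes *msp-3* and *msp-19* had at most 4 counts in any library, and *msp-19* was at 0 in N2 replicate 1. The part of these genes' source in the *mom-2* result was not tested. The germ line list summed to 13.97 and 16.0 CPM in *pry-1(mu38)*, against 14.3 and 30.1 CPM in N2, and so did not have the order of *mom-2*.

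In the annotation *mom-2* lies on chromosome V, and the gene *mpdu-1* follows it on the opposite strand, 17 bases away. The libraries do not mark strand, so reads that run past the end of one gene could be counted for the other. *mpdu-1* had 1156 and 1254 counts in *pry-1(mu38)*, against 1126 and 1012 in N2, a log2 fold change of 0.063. The part of reads that run past a gene end in the counts of *mom-2* was not tested. The other neighbour, *srsx-22*, had 14 counts in each *pry-1(mu38)* library, against 10 and 38 in N2. Of the 11 annotated neighbours of the 5 ligands 9 were tested and 0 passed the threshold after adjustment. An unadjusted p under 0.05 was found for 2, *srd-3* next to *cwn-1*, with a log2 fold change of -1.73, and *ipla-7* next to *cwn-2*, with -0.67.

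*egl-20* encodes the ligand made by cells near the anus, which acts through the canonical branch on the left Q neuroblast and directs the path of its descendants. It was the most abundant ligand transcript in every library. It had 17329 and 15249 counts in *pry-1(mu38)*, or 537.9 and 475.5 CPM, against 12680 and 11123 counts in N2, or 464.0 and 336.1 CPM. The mutant libraries were above both N2 libraries, but replicate 2 of *pry-1(mu38)* exceeded replicate 1 of N2 by 1.02 times only, less than the 1.38 times between the N2 libraries. The log2 fold change was 0.34 (standard error 0.22, 95% interval -0.23 to 0.91, quasi-likelihood test of edgeR, adjusted p = 0.432). This became 0.12 in the fit without N2 replicate 2 and 0.62 in the one without N2 replicate 1.

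*lin-44*, expressed in the tail hypodermis, is known to orient the division of the T cell and the polarity of tail neurons. It had 1006 and 996 counts in *pry-1(mu38)*, against 892 and 800 in N2. In CPM the mutant libraries were nearly equal, at 31.2 and 31.1, against 32.6 and 24.2 in N2. The mutant values lay between those of the N2 libraries. The log2 fold change was 0.13 (standard error 0.21, 95% interval -0.42 to 0.69, quasi-likelihood test of edgeR, adjusted p = 0.733), and it turned to -0.073 without N2 replicate 2.

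*cwn-1*, a ligand of posterior body wall muscle and ventral cord cells, acts together with *egl-20* and others in neuronal migration and polarity. It had 2789 and 2582 counts in *pry-1(mu38)*, against 2618 and 3236 in N2. This was 86.6 and 80.5 CPM in the mutant, against 95.8 and 97.8 CPM in N2, so that both mutant libraries were lower by a small margin. The log2 fold change was -0.21 (standard error 0.15, 95% interval -0.60 to 0.17, quasi-likelihood test of edgeR, adjusted p = 0.458). It was the ligand with the least spread between fits, from -0.25 to -0.14 as single libraries were left out. As a fold, its interval ran from 0.662 to 1.13 times the N2 level.

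*cwn-2* is expressed further to the front than the other ligands and is known for its part in placing the nerve ring and in the growth of neurites. It had 320 and 424 counts in *pry-1(mu38)*, or 9.93 and 13.2 CPM, against 311 and 821 counts in N2, or 11.4 and 24.8 CPM. One library, N2 replicate 2, was high and the other 3 lay close together, with N2 replicate 1 between the mutant libraries. The log2 fold change was -0.65 (standard error 0.43, 95% interval -1.75 to 0.45, quasi-likelihood test of edgeR, adjusted p = 0.439), with 0.020 on leaving out N2 replicate 2 and -1.07 on leaving out N2 replicate 1. The N2 libraries differed 2.18-fold in this gene, more than the fitted difference between the strains.

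Summed markers of pharynx, body wall muscle, neurons, germ line and embryos before hatching were highest in the same N2 library as *cwn-2*. Those of hypodermis and intestine were lowest in it, and the oocyte and adult list was higher in both mutant libraries. The intestine sum was mostly *asp-1*, which was lowest in N2 replicate 2, at 2138 CPM. The intestine genes *act-5* and *ifb-2* were highest in that library, at 1110 and 679.4 CPM. The 5 measured pharynx markers summed to 145.4 and 288.4 CPM in *pry-1(mu38)*, against 418.2 and 1183 CPM in N2, and all 5 log2 fold changes were negative (median -1.61, and -0.59 without N2 replicate 2). The 6 muscle markers summed to 12651 and 12818 CPM in *pry-1(mu38)*, against 13278 and 23908 CPM in N2, with a median log2 fold change of -0.52 that was 0.062 without N2 replicate 2. No marker of the pharynx and muscle lists was at 0 in any library. The part of any marker list's source in the *cwn-2* values was not tested. In the annotation *cwn-2* shares 50 exon bases with *W01B6.3* on the opposite strand, which had 19 and 14 counts in *pry-1(mu38)*, against 10 and 8 in N2. How reads in the shared bases were assigned was not tested.

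**Figure D2:**
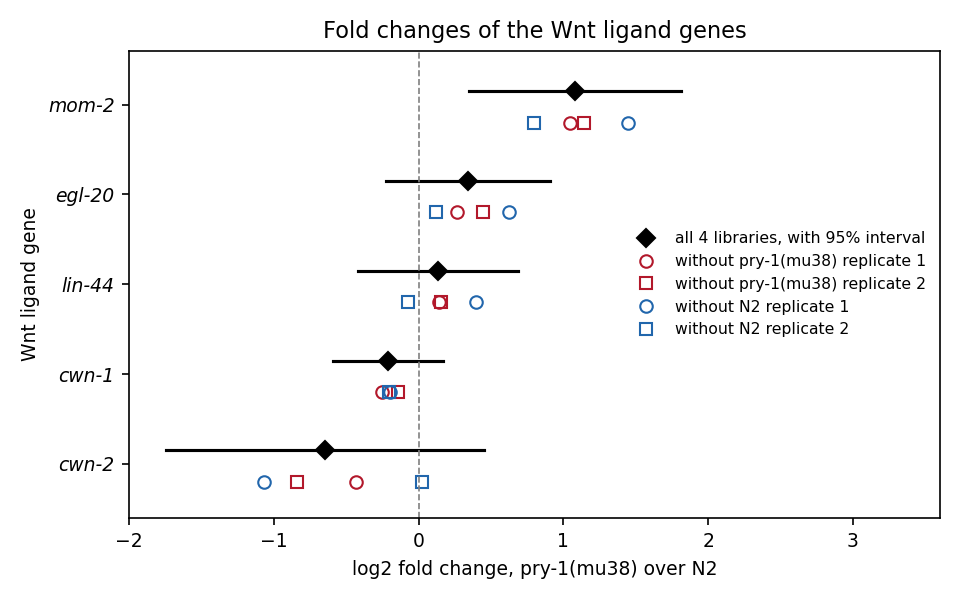
Log2 fold change of each WNT ligand gene, *pry-1(mu38)* over N2, fitted on all 4 libraries (black diamonds, with 95% intervals) and with each library left out in turn (open symbols). The interval of *mom-2* runs from 0.35 to 1.81 and those of the other 4 genes include 0, and the value of *cwn-2* moves to 0.020 without N2 replicate 2.

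Levels were compared between the ligands after division by the length of their exons, which is 1378 to 2019 bases. *egl-20* led with a mean of 224.6 CPM per kb over the 4 libraries, followed by *cwn-1* at 52.2, *lin-44* at 21.6, *cwn-2* at 10.4 and *mom-2* at 8.03 CPM per kb. The first 3 places were the same in every library, and the ranges of neighbours in the order did not overlap down to *lin-44*, whose lowest library was 1.01 times the highest of *cwn-2*. The ranges of *cwn-2* and *mom-2* overlapped. *mom-2* came before *cwn-2* in both *pry-1(mu38)* libraries, with 11.2 and 10.5 CPM per kb against 6.96 and 9.27 for *cwn-2*, and after it in both N2 libraries, with 6.24 and 4.09 CPM per kb against 7.98 and 17.4 for *cwn-2*. The last ligand of the order thus changed with the strain.

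Counts of the ligands within a library do not depend on how libraries are scaled, so their shares were compared as well. *mom-2* made up 2.53% of the ligand counts in *pry-1(mu38)* replicate 1 (Clopper-Pearson 95% interval 2.33% to 2.75%) and 2.63% in replicate 2 (2.41% to 2.86%), against 1.56% (1.38% to 1.76%) and 1.28% (1.12% to 1.47%) in the N2 libraries. The mean share in the mutant was 1.81 times that in N2, with an exact two-sided permutation p of 0.333, the smallest that 2 against 2 libraries allow. *egl-20* made up 78.8% and 77.1% of the ligand counts in *pry-1(mu38)*, against 75.6% and 68.7% in N2. *cwn-1* made up 12.7% and 13.1% in *pry-1(mu38)*, against 15.6% and 20.0% in N2. For these 3 genes the strains did not overlap, and for *lin-44* and *cwn-2* they did. Over the summed ligand counts, 57.6% of 15088 tested genes with a count in every library were apart in the same way, so 3 of 5 is near the background.

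Each other ligand had fewer counts per *mom-2* count in both mutant libraries than in both N2 libraries. For *egl-20* there were 31.1 and 29.3 counts per *mom-2* count in *pry-1(mu38)*, against 48.4 and 53.5 in N2. For *cwn-1* there were 5.01 and 4.97 in *pry-1(mu38)*, against 9.99 and 15.6 in N2. *lin-44* gave 1.81 and 1.92 in *pry-1(mu38)*, against 3.40 and 3.85 in N2. The 4 ratios share the counts of *mom-2* and are not independent. Among all tested genes with a count in every library 89.7% had fewer counts per *mom-2* count in both mutant libraries, so the other ligands did here what most genes did. Of the 10 pairs of ligands, 7 had ratios that did not overlap between the strains, and the 3 that did were the pairs of *cwn-2* with *lin-44*, *egl-20* and *cwn-1*. Over all pairs of these tested genes 56.6% did not overlap.

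**Figure D3:**
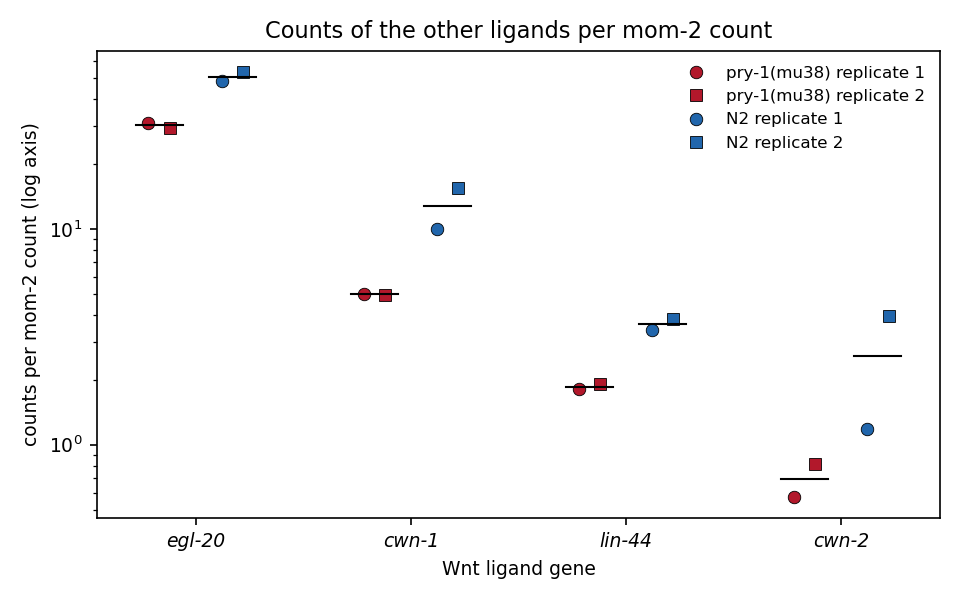
Counts of *egl-20*, *cwn-1*, *lin-44* and *cwn-2* per *mom-2* count in each library, on a log axis, with *pry-1(mu38)* in red on the left, N2 in blue on the right and black bars for the strain means. For all 4 genes the mutant libraries lie below the N2 libraries, as for 89.7% of the genes compared with *mom-2* in this way, and for *egl-20* the values are 31.1 and 29.3 in *pry-1(mu38)*, against 48.4 and 53.5 in N2.

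All ligands together had 683.0 and 616.5 CPM in *pry-1(mu38)*, against 613.4 and 489.2 CPM in N2. Most of this is *egl-20*. Without it the sums were 145.0 and 141.0 CPM in *pry-1(mu38)*, against 149.4 and 153.1 CPM in N2. The median log2 fold change of the 5 ligands was 0.13, beside -0.023 over all tested genes. It was 0.020 without N2 replicate 2 and 0.40 in the fit without N2 replicate 1.

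Among the other genes, those with the profile nearest to a ligand over the 4 libraries were looked up. For *mom-2* they were *C09E7.6* and *C18D4.8*, with root mean square differences of 0.0173 and 0.028 on the log2 scale. *C09E7.6* had 6.52 and 5.96 CPM in *pry-1(mu38)*, against 3.62 and 2.33 CPM in N2. For *cwn-2* they were *ugt-37*, named as a glucuronosyltransferase, and the sperm gene *spe-26*. For *cwn-1* they were *rgs-2*, a regulator of G protein signalling, and *cpx-2*, a complexin, and for *egl-20* they were *Y17G7B.18* and *F58E2.3*. For *lin-44* they were the chaperonin subunit gene *cct-5* and *F01F1.1*. With 4 libraries many genes come close, and 44 of 15087 genes lay within 0.1 of *mom-2*, 105 of *cwn-2*, 762 of *cwn-1*, 1497 of *egl-20* and 1767 of *lin-44*.

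The rest of the pathway was described by 31 genes in 6 roles, all of which passed the filter. By the quasi-likelihood test of edgeR 0 passed the threshold after adjustment, and 22 had a positive and 9 a negative log2 fold change. An unadjusted p under 0.05 was found for 3, all 3 with a positive value. Over all 15101 tested genes 7300 had a positive value, 14.6% an unadjusted p under 0.05 and 6.1% such a p with a positive value. DESeq2 called 1 of the 31, *pry-1*, and 3.22% of all tested genes, and the exact test 0 of the 31 and 1.88% of all. The fit without N2 replicate 1 called 14 of the 31 and 28.9% of all genes in the newer version of the quasi-likelihood test, and 0 of the 31 in the earlier one. The median was 0.15, beside -0.023 over all tested genes, and it was 0.071 when N2 replicate 2 was left out and 0.24 when N2 replicate 1 was. Of the 7 genes needed to secrete ligands, among them *mig-14*, the Wntless homolog that carries WNTs to the cell surface, and the retromer genes *vps-35*, *vps-26* and *vps-29*, which return it, 6 had a positive value, with a median of 0.28 that was 0.066 without N2 replicate 2 and 0.62 in the fit without N2 replicate 1. Of the 6, *mtm-6* was at 0.0034 only and turned to -0.016 without N2 replicate 2. For *mig-14* there were 92.5 and 82.5 CPM in *pry-1(mu38)*, against 76.7 and 55.0 CPM in N2.

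The receptors differed in direction. The Frizzled gene *lin-17*, through which LIN-44 acts, had 110.1 and 101.3 CPM in *pry-1(mu38)*, against 71.0 and 69.9 CPM in N2, which is a log2 difference of 0.59 (standard error 0.15, with an adjusted p = 0.337 by the quasi-likelihood test of edgeR). Both mutant libraries were higher, and the strains were apart by more than the spread within each. The 6 other genes of this list had negative values, from -0.78 to -0.21. Of these *lin-18* turned to 0.071 and *sfrp-1* to 0.44 without N2 replicate 2, and *sfrp-1* to 0.13 without *pry-1(mu38)* replicate 1. The median of the list, -0.48, was -0.21 when N2 replicate 2 was left out. They were the Frizzled genes *mig-1*, *cfz-2* and *mom-5*, the Ryk gene *lin-18*, the Ror gene *cam-1* and the secreted inhibitor *sfrp-1*. *mom-5*, a receptor for MOM-2 in the embryo, had 10.1 and 11.4 CPM in *pry-1(mu38)*, against 13.5 and 16.4 CPM in N2, a log2 fold change of -0.48, and the strains did not overlap.

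Downstream of the receptors the 3 Dishevelled genes had positive values with a median of 0.10, which was 0.0031 without N2 replicate 2 (where *mig-5* turned negative) and 0.38 without N2 replicate 1. *pry-1(mu38)* replicate 2 also moved this median, to 0.18 when left out. Of the 5 destruction complex genes 4 had positive values, with a median of 0.24 that became 0.095 in the fit without N2 replicate 1. Leaving out a mutant library moved it to 0.38 for replicate 1 and to 0.14 for replicate 2. The largest value was that of *pry-1* itself, at 0.78 (standard error 0.16, adjusted p = 0.337). Of the beta-catenin, kinase and TCF genes 5 of 6 had positive values, with a median of 0.25 that was 0.073 without N2 replicate 2 and 0.53 on leaving out N2 replicate 1. All 3 Hox genes known as WNT targets had positive values in the fit on 4 libraries, with a median of 0.33 that was 0.63 without N2 replicate 1. For *lin-39*, at 0.15, and *egl-5*, at 0.33, the strains overlapped. The value of *lin-39* turned to -0.055 without *pry-1(mu38)* replicate 1. The third Hox gene, *mab-5*, which EGL-20 turns on in the left Q neuroblast, had 43.1 and 38.2 CPM in *pry-1(mu38)*, against 31.4 and 25.1 CPM in N2. Its log2 difference was 0.53 (standard error 0.20, with an adjusted p = 0.337 by the quasi-likelihood test of edgeR).

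**Figure D4:**
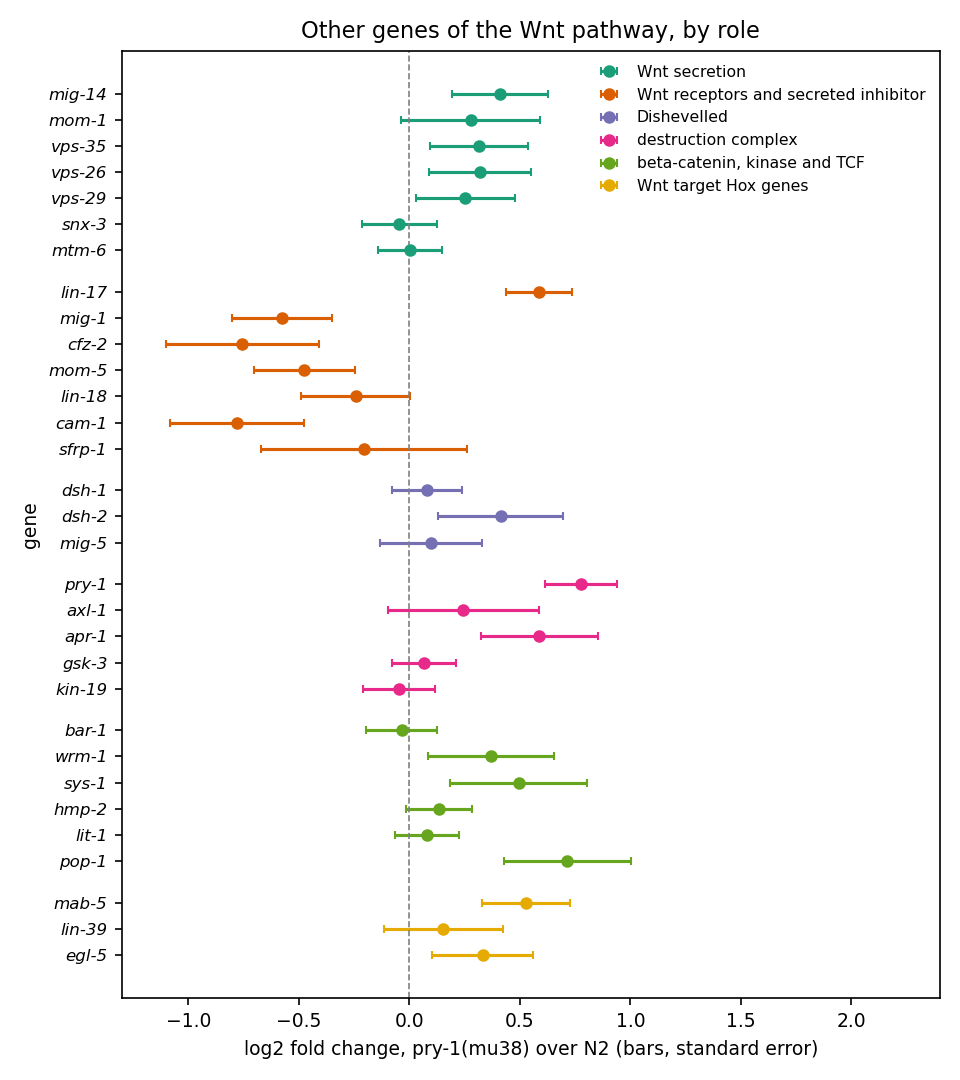
Log2 fold change, *pry-1(mu38)* over N2, of the 31 other WNT pathway genes, coloured by role, with bars for the standard error. The receptor list holds 6 negative values beside *lin-17* at 0.59, and *pry-1*, *lin-17* and *mab-5* are the genes with an unadjusted p under 0.05.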

How the data were processed

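Total RNA was isolated from whole, synchronized L1 larvae of *pry-1(mu38)* and N2, with 2 biological replicates per strain. Libraries were made from mRNA with a kit that does not mark strand and sequenced as 100 bp paired-end reads. The authors deposited raw counts per gene, as whole numbers. Their methods describe trimming, alignment to ce6 with Bowtie and abundance estimates by eXpress, and the submitters' processing notes name BWA and DESeq. Quantile normalization, which the methods describe, had not been applied to the deposited counts. The tool, annotation and strand setting behind the gene counts are not given in the sources used here. The 5 summary lines at the end of the table (reads outside genes, on several genes, aligned to several places and so on) were left out, and no column was unused. Reads outside genes were 5.32% to 6.75% of the reads listed per library and reads aligned to several places 8.04% to 11.6%.

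*pry-1(mu38)* was tested against N2 in edgeR 4.0.16 (R 4.3.3), with filterByExpr (minimum count 10), TMM scaling (factors 0.985 to 1.02), the quasi-likelihood test and Benjamini-Hochberg adjustment over the 15101 genes that passed, at a threshold of 0.05. Standard errors are the log2 fold change divided by the square root of F. CPM were computed on library sizes after TMM. CPM per kb divides by the union of exons in Ensembl release 115 (WBcel235). Distances to and overlaps with neighbouring genes come from the same annotation, whose build differs from ce6, so no coordinates are printed and they hold for that annotation only. The test was run first with edgeR's earlier version of the quasi-likelihood method, its default. The newer version was then adopted after the data had been seen, since the same data had been treated so before. The earlier version, robust estimation and library sizes summed before the filter are given as alternatives chosen after seeing the data, beside DESeq2 1.42.0, edgeR's exact test, no TMM, quantile normalization (limma 3.58.1) with DESeq2, other filters, a replicate block and each library left out in turn. The tests were tried on simulated counts with larger changes than those of the ligands and less spread between replicates than in these data. That run does not show how the tests do on changes like those of the ligands. Shares of counts have Clopper-Pearson 95% intervals and counts exact Poisson 95% intervals, which cover counting error only.

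The 5 ligand genes, the 83 genes of the 14 pathway and marker lists (81 matched by symbol, synonym or locus name) and the tests were chosen with earlier results of these data known. Annotated neighbours were named where they lie next to *mom-2*, share exon bases with a ligand or had an unadjusted p under 0.05. Also named were the ligands, for each of them its 2 nearest profiles, *pry-1*, and pathway genes with an unadjusted p under 0.05. Other pathway and marker genes in the text (*mig-14*, the retromer genes, the receptors, *lin-39* and others) fall outside this rule and were named for their role, after their values had been seen. The nearest profile is the smallest root mean square difference of log2 CPM, each gene centred on its mean over the 4 libraries. The 4 oocyte genes summed on their own were picked after their values were seen.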

Additional observations from a re-analysis of the deposited data

How the results depend on the processing

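Over all 4 libraries, each of the 5 ligand genes kept its direction in the 10 alternatives run. The log2 fold change of *mom-2* was 1.07 to 1.14 there, with an adjusted p of 0.0579 in DESeq2, 0.0736 after quantile normalization and DESeq2, 0.120 in the exact test and 0.337 to 0.393 under the other scalings, filters and versions of the quasi-likelihood test without a block. With a replicate block it was 1.11 with an adjusted p of 0.00588. The libraries share only a number, and with 2 per strain the correlation of same-numbered deviations (0.533) does not show a pairing, so the call under the replicate block rests on an assumption; the block changed no other ligand's call. Of the 31 other pathway genes it called 4, *cam-1*, *cfz-2*, *pop-1* and *pry-1*, beside 16.1% of all genes.

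Leaving out a library moved more. The ranges were 0.80 to 1.45 for *mom-2*, 0.12 to 0.62 for *egl-20*, -0.073 to 0.40 for *lin-44*, -0.25 to -0.14 for *cwn-1* and -1.07 to 0.020 for *cwn-2*, and the earlier version of the test gave nearly the same values. The sign turned without N2 replicate 2, to -0.073 for *lin-44* and 0.020 for *cwn-2*, in both versions. The share ratio of *mom-2* was 1.65 to 2.01, and it was 2.23 without *egl-20* in the sum. Without N2 replicate 1, calls of ligands depended on the version of the test. They were not read as results, since such a fit assumes the lone N2 library to vary as the mutant pair does.

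The number of genes called over the whole table depended strongly on the test. It was 1 (0 higher, 1 lower) in the fit reported, 486 in DESeq2 (180 higher, 306 lower), 284 in the exact test (144 higher, 140 lower), 508 after quantile normalization and DESeq2 (223 higher, 285 lower), 0 without a filter on low counts (2360 at an unadjusted p under 0.05) and 2427 with the replicate block (693 higher, 1734 lower). With a library left out it was 52 to 4595 (17 to 2162 higher, 35 to 2433 lower), and in the earlier version of the test 39 without *pry-1(mu38)* replicate 1 (14 higher, 25 lower), 512 without *pry-1(mu38)* replicate 2 (52 higher, 460 lower), 0 without N2 replicate 1 (8113 at an unadjusted p under 0.05) and 219 without N2 replicate 2 (73 higher, 146 lower). The cause was not tested. The earlier version, robust estimation and library sizes before the filter, all chosen after the data had been seen, each called 1 gene on all 4 libraries.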
